A study of Mus musculus with 5 samples.

Results

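The 7 genes described here mark basal stem cells of the airway without being keratins, and were followed through 5 single-cell libraries of mouse trachea: Trp63, Dapl1, Dlk2, Aqp3, Ngfr, Pdpn and Icam1. They were chosen by name, with earlier results of these data known, from the 30907 mouse genes listed in the files. Each was measured in epithelial cells on either side of a gate on Krt5, the keratin that defines basal cells. A cell was called Krt5-high when Krt5 made up at least 5 of every 10000 of its mouse UMIs (unique molecular identifiers, each standing for 1 captured transcript). The gate held 2549 of 5912 epithelial cells, and the 3363 cells below it are called other epithelial cells. All 7 genes passed the filter on low counts in every comparison.

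Recipients were adult wild type mice of strain 129 X1/S1. Their tracheas were injured with 2% polidocanol, a detergent that strips the surface epithelium, and 5 hours later received 6e6 iBCs, basal cells made from mouse embryonic stem cells. From each of 2 recipients, 1 at 40 days and 1 at 56 days after transplantation, live cells (Calcein Blue+) were sorted by GFP. GFP+ cells are called donor-derived and GFP- cells endogenous, with 2 libraries in each group. The control was 1 trachea of the same background and sex with neither injury nor transplantation, sorted on Calcein Blue+ alone (n = 1 library). The replicates of a group therefore differed in time as well as in animal, and the 2 libraries of 1 day came from 1 animal. The embryonic stem cell line, its number of clones and the promoter that drives GFP are not given in the sources used here.

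Basal cells sit on the basement membrane of the trachea and act as stem cells that renew the secretory and ciliated cells above them. Trp63 encodes p63, the transcription factor that basal cells of stratified and pseudostratified epithelia need, and Dlk2 encodes a membrane protein of the Delta-like family that can modulate Notch signalling. Aqp3 is a channel for water and glycerol, Ngfr is the low-affinity receptor for neurotrophins, Pdpn (podoplanin) is a mucin-type membrane glycoprotein that binds the ezrin and moesin linkers to the cytoskeleton, and Icam1 is an adhesion molecule for leukocyte integrins whose gene answers inflammatory signals. Dapl1 encodes a small protein linked to epithelial differentiation.

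The libraries held 5 filtered sets of 611 to 1731 cells, of which 609 to 1730 were epithelial. Krt5-high cells made up 41.6% and 40.7% of the epithelial cells of the endogenous libraries (day 40, then day 56, the order kept throughout), 41.9% and 54.0% of the donor-derived ones and 21.3% of the control. Their median depth was 8114 to 11625 UMIs per cell, against 11061 to 16632 in other epithelial cells. Pairs of libraries shared 0 to 2 cell barcodes. In the donor-derived libraries 43 and 14 epithelial cells fell in clusters made up at 90% or more of endogenous cells. Levels are given as CPM, the UMIs of a gene scaled to a common total of all UMIs summed over a library and compartment, with TMM factors (trimmed mean of M-values).

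Basal keratins were read within the gate. Krt5 stood at 1617 and 1503 CPM in endogenous, 1666 and 1300 in donor-derived and 1370 in control Krt5-high cells, so the ranges of the donor-derived and endogenous groups overlapped in the gene that set the gate. As the cells were selected on Krt5, this overlap is a description and no check of the gate. Krt15, another basal keratin, read 5934 and 4027 CPM in endogenous, 4180 and 3127 in donor-derived and 5531 in control cells. Krt14, the keratin of activated basal cells, read 444 and 805 CPM in endogenous and 3005 and 1772 in donor-derived cells but 7.74 CPM in the control. Defining markers of several other cell types were low or absent in the epithelial sums: Col1a1 and Col3a1, which define fibroblasts, were at 0 in 9 of the 10 sums of a library and compartment, Sox10 of Schwann cells likewise in 9 of 10 (the list's 49.4 to 95.5 CPM came mostly from Mbp), and the 5 endothelial and lymphatic markers together gave 0.234 to 4.39 CPM. Summed muscle markers (5 genes) gave 0.0 to 41.0 CPM, and the fibroblast list reached 377 to 601 CPM in Krt5-high cells almost wholly through Dcn (decorin). Immune markers summed to 7.21 to 128.5 CPM in Krt5-high cells and were far higher in other epithelial cells, through Lyz2.

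All 7 genes were higher in Krt5-high cells than in the other epithelial cells of the same library, in 5 of 5 libraries each. The span was wide: Dlk2 was 6.64 to 52.1 times higher, Ngfr 10.4 to 34.9 times, Trp63 8.55 to 32.7 times and Dapl1 6.78 to 19.1 times. Aqp3 was 6.72 to 11.9 times higher, Pdpn 3.62 to 10.8 times, and Icam1 only 1.10 to 7.21 times. In a fit over the 5 libraries that held a term for each library, 7 of 7 genes were called higher and 0 lower, where 48.5% of the 13538 genes tested were called and 22% were called higher (edgeR quasi-likelihood F-test, Benjamini-Hochberg adjusted p under 0.05). Since the genes were named as basal markers, their higher level on the Krt5 side is a description of how well they follow Krt5 and no independent evidence. The log2 difference was 4.59 ± 0.47 (SE) for Dlk2, 4.34 ± 0.31 for Trp63, 4.13 ± 0.22 for Ngfr and 3.53 ± 0.27 for Dapl1. It was 3.17 ± 0.15 for Aqp3, 2.57 ± 0.25 for Pdpn and 1.47 ± 0.40 for Icam1, with adjusted p from 1.57e-05 (Aqp3) to 0.0216 (Icam1). The call for Icam1 was lost in 3 of 18 alternatives, among them those without the endogenous library of day 40 (adjusted p = 0.0643) or of day 56 (0.0734). TMM placed the median of all genes 0.29 lower on the log2 scale than scaling by total counts, which turned a split of 2984 higher to 3588 lower calls into 5346 to 2403 (45.4% and 69.0% higher) and left all 7 genes called higher.

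**Figure D1:**
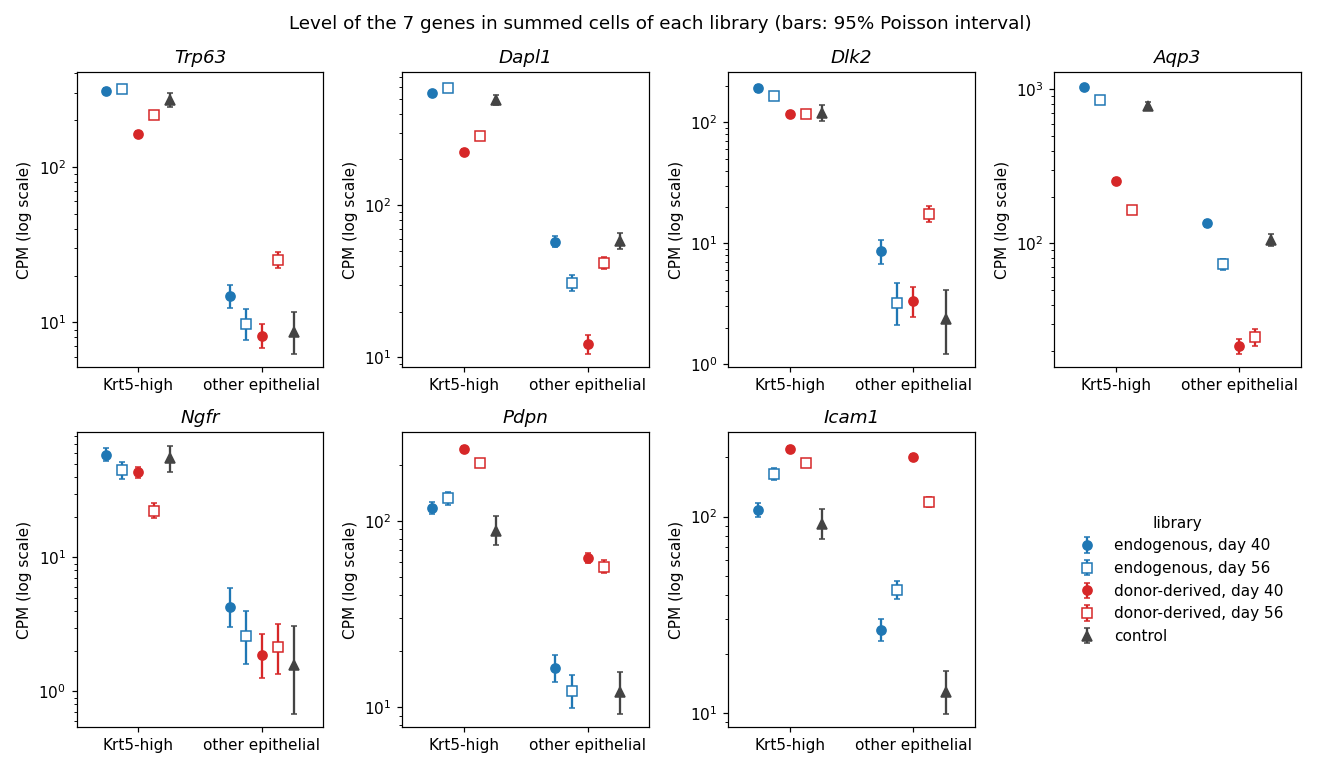
Level of each gene (CPM, log scale) in the summed Krt5-high and other epithelial cells of the 5 libraries, with 95% Poisson intervals that cover counting error only. Aqp3 separates the donor-derived from the other libraries in both compartments (165 to 254 CPM against 782 to 1037 in Krt5-high cells), and Icam1 in the other cells of the donor-derived libraries (201 and 119 CPM) lies above the other 3 libraries (12.8 to 42.4 CPM).

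Within the Krt5 gate, the donor-derived cells differed from the endogenous ones in 4 of the 7 genes, 3 lower and 1 higher. Of the 11826 genes tested there, 8.03% were called, 2.73% higher and 5.3% lower. As the 7 genes were chosen with earlier results known, this share is a reference and no test of the set. Dapl1, Dlk2 and Aqp3 were lower in donor-derived cells, Pdpn was higher, and Trp63, Ngfr and Icam1 missed the threshold. The p-values measure the spread between 2 libraries per group, moderated by that of the other genes. The fits rest on both endogenous libraries: without that of day 40 or that of day 56, the calls among the 7 genes were lost. The adjusted p of the 4 called genes then rose to 0.120 and 0.138 for Dapl1, 0.338 and 0.187 for Dlk2, 0.0881 and 0.0580 for Aqp3 and 0.285 and 0.172 for Pdpn, with the directions kept. Without either donor-derived library, 6 (day 40 left out) and 5 (day 56 left out) of the 7 and 1589 and 1951 genes were called, with Trp63 among them in both cases. The lone library is then assumed to vary like the other group. Clusters that scored highest for basal markers made up 74.3% and 69.2% of the endogenous, 97.4% and 99.0% of the donor-derived and 51.5% of the control gate; the part of this make-up in the differences was not tested. Against total-count scaling, TMM shifted the median of all genes by -0.10 (log2) within the gate and by -0.11 below it; with total counts 2 of the 7 were called lower within the gate and 1 higher.

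Trp63 read 308 and 318 CPM in endogenous Krt5-high cells, 162 and 216 CPM in donor-derived ones and 269 CPM in the control (95% Poisson interval 242 to 297). Both donor-derived libraries lay below the 3 others and the groups did not overlap, but the difference of -0.75 ± 0.17 on the log2 scale had an adjusted p of 0.0566 in the edgeR test. It was called once the recipient entered as a replicate block (-0.76 ± 0.14, adjusted p = 0.0248), and in 10 of 17 alternatives in all. The gene spans chr16:25683763-25892102 on the plus strand (GRCm38). Other p53 family members and partners of p63, a list of 9 genes all of which were tested, gave 1 higher and 1 lower call: Sox2, an airway lineage factor that works with p63 in squamous cells, was lower by -1.13 ± 0.12 (adjusted p = 0.00602), and Tfap2a was higher by 0.76 ± 0.16 (0.0425, and 0.0617 by DESeq2).

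Dapl1 (chr2:59484653-59505020, plus strand) read 543 and 591 CPM in endogenous Krt5-high cells and 225 and 284 CPM in donor-derived ones, with 495 CPM (459 to 533) in the control. The donor-derived pair was the lowest of the 5 libraries and stood apart from the rest. The difference was -1.18 ± 0.16 on the log2 scale, a 2.26-fold lower level (edgeR adjusted p = 0.0115). It was lower in both recipients, at 0.415 and 0.481 of the endogenous level.

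Dlk2 (chr17:46297421-46303271, plus strand) read 191 and 167 CPM in endogenous cells, 119 and 116 CPM in donor-derived cells and 120 CPM (103 to 140) in the control. The groups of the recipients did not overlap, and the control lay with the donor-derived libraries. The difference was -0.63 ± 0.13 (edgeR adjusted p = 0.0412), which was lost with total-count scaling (0.0711) and with the Krt5 threshold at 2 per 10000 (0.0528). The make-up of the gate differed as well, and its part in the control's level was not tested. Cluster 8 held 42.3% of the control's Krt5-high cells, 13.9% and 11.6% of the endogenous and fewer than 20 cells of each donor-derived library. It is an unnamed cluster led by S100g, Fmo6 and Hspb1, with Krt4, Krt13 and Aqp3 also among its 10 leading genes. In cluster 8 Dlk2 gave 11.6 CPM (9 UMIs) in the day 40 endogenous library and 32.1 CPM (16 UMIs) in the control, and no UMI was found in the 38 cells of the day 56 library. In cluster 2, which held 71.0% and 67.7% of the endogenous gate and 65 control cells, it gave 266 and 252 CPM and, in the control, 229 CPM (total-count scale). Among clusters that scored highest for basal markers, taken in place of the Krt5 gate, the difference was -1.01 ± 0.12 for Dlk2 and -1.08 ± 0.17 for Trp63 (adjusted p = 0.00646 and 0.0163). That marker list holds Trp63, Dapl1, Aqp3 and Ngfr. Notch ligands and receptors listed with Dlk2 gave 0 calls among 6 tested in Krt5-high cells (edgeR; 2 at an unadjusted p under 0.05, 1 higher by DESeq2). Of all genes 8.03% were called there by edgeR.

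Aqp3 (chr4:41092722-41098183, minus strand) showed the largest difference of the 7 genes within the gate. It read 1037 and 854 CPM in endogenous Krt5-high cells, 254 and 165 CPM in donor-derived ones and 782 CPM (736 to 829) in the control. The donor-derived libraries lay far below the other 3, which included the uninjured trachea. The difference was -2.19 ± 0.25, a 4.58-fold lower level (edgeR adjusted p = 0.00927), and the donor-derived level was 0.245 and 0.193 of the endogenous one in the 2 recipients. Of the other aquaporins 0 of 3 tested were called (edgeR; 0 at an unadjusted p under 0.05 and 0 by DESeq2). With so few genes, 0 calls is near the 8.03% of all genes called there. Aqp5 and Aqp4, water channels of luminal and basolateral membranes, differed by -0.14 ± 0.15 and -0.04 ± 0.15.

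Ngfr (chr11:95568818-95587735, minus strand) read 58.5 and 45.0 CPM in endogenous, 43.3 and 22.4 in donor-derived and 54.9 CPM (43.4 to 68.5) in control Krt5-high cells. The day 56 donor-derived library was the lowest, while that of day 40 lay just under the endogenous pair with a Poisson interval (39.5 to 47.4) that overlapped the day 56 endogenous one (38.8 to 51.8). The difference of -0.68 ± 0.35 was not called (edgeR adjusted p = 0.388), nor with the recipient as a block (0.0506); leaving out the day 40 donor-derived library gave -1.23 ± 0.21 and an adjusted p of 0.000205. Of 7 neurotrophin genes and receptors tested beside it, Ntf3, the ligand neurotrophin 3, was lower, with 31.9 and 28.8 CPM in endogenous, 27.4 in control and 0.826 and 1.85 CPM in donor-derived Krt5-high cells (-4.51 ± 0.34, adjusted p = 0.00205). Sort1, the sortilin co-receptor, was higher (1.64 ± 0.29, 0.0268). These 2 lie under 20 CPM on average and are named because they are the only calls of the list.

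Pdpn (chr4:143267431-143299564, minus strand) read 117 and 132 CPM in endogenous Krt5-high cells, 244 and 206 CPM in donor-derived ones and 88.6 CPM (73.8 to 106) in the control. Both donor-derived libraries lay above the 3 others. The difference was 0.83 ± 0.15, a 1.78-fold higher level (edgeR adjusted p = 0.0268), and was lost in the basal-marker clusters (0.68 ± 0.15, 0.0516). Among 7 tested partners of podoplanin, Msn (moesin) and Cd44, which podoplanin binds, were higher in donor-derived Krt5-high cells by 1.45 ± 0.20 and 0.94 ± 0.15, and the tetraspanin Cd9 was lower by -0.71 ± 0.12 (adjusted p = 0.0121, 0.0206 and 0.0223).

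Icam1 (chr9:21015985-21028817, plus strand) read 108 and 165 CPM in endogenous, 221 and 187 in donor-derived and 92.2 CPM (77.1 to 109) in control Krt5-high cells. The donor-derived pair was the higher, but the day 56 endogenous library (153 to 177) came close to the day 56 donor-derived one (179 to 195). The difference of 0.56 ± 0.23 was not called (edgeR adjusted p = 0.251).

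**Figure D2:**
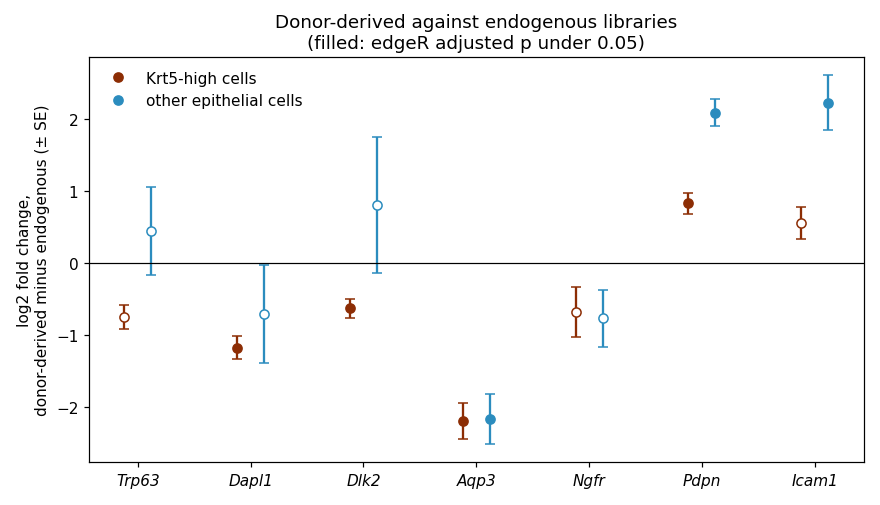
Log2 fold change of donor-derived over endogenous libraries (± SE, 2 against 2 libraries) for each gene in Krt5-high and in other epithelial cells, with filled points for an edgeR adjusted p under 0.05. Aqp3 lies near -2.2 in both compartments (-2.19 and -2.17), while Pdpn and Icam1 lie higher in the other epithelial cells (2.09 and 2.23) than in Krt5-high cells (0.83 and 0.56).

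Below the gate, 3 of the 7 genes differed between donor-derived and endogenous libraries, 2 higher and 1 lower. There 8.23% of 12852 genes were called, 2.4% higher and 5.83% lower. Pdpn and Icam1 were higher in donor-derived cells and Aqp3 was lower. When either the day 40 or the day 56 endogenous library was dropped, 0 genes were called (edgeR; 1722 and 1699 genes, and 3 and 3 of the 7, at an unadjusted p under 0.05), and without the day 40 or the day 56 donor-derived library 4282 and 5887 genes and 2 and 2 of the 7 were called. With the recipient as a block, 1 of the 7, Pdpn, kept its call. Summed muscle markers moved with the group here, at 2.25 and 1.85 CPM in endogenous, 21.8 and 5.68 in donor-derived and 0.983 in control other cells, chiefly Acta2 and Myh11. Immune markers moved the other way, at 3839 and 7964, 1470 and 406, and 3064 CPM, nearly all of it Lyz2, which secretory cells also express, with Ptprc at 2.93 and 8.14, 0.648 and 0.186, and 0.983 CPM. The part of either list in these results was not tested.

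Pdpn read 16.1 and 12.2 CPM in endogenous other cells, 63.3 and 56.8 CPM in donor-derived ones and 11.99 CPM (9.18 to 15.4) in the control. Both donor-derived libraries stood well above the 3 others, at 3.93 and 4.65 times the endogenous level of the same recipient. The difference was 2.09 ± 0.19 (edgeR adjusted p = 0.0175, and 0.0219 with the block), a 4.26-fold higher level.

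Icam1 read 26.5 and 42.4 CPM in endogenous other cells, 201 and 119 CPM in donor-derived ones and 12.8 CPM (9.87 to 16.3) in the control. The 3 groups did not overlap, with the control the lowest. The difference was 2.23 ± 0.38, a 4.68-fold higher level (edgeR adjusted p = 0.0474); it was lost with the block (0.0738), in cells without any Krt5 UMI (2.32 ± 0.49, 0.0758), with the Krt5 threshold at 2 (0.0592), without the donor-library cells in endogenous clusters (0.0629), with the immune clusters kept (0.0697) and without the day 40 donor-derived library (0.113). Its direction held in all of these.

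Aqp3 read 135 and 72.9 CPM in endogenous other cells, 21.4 and 24.5 CPM in donor-derived ones and 105 CPM (96.5 to 114.5) in the control. The donor-derived libraries were again the lowest, at 0.159 and 0.336 of the endogenous level. The difference was -2.17 ± 0.34 (edgeR adjusted p = 0.0422), lost with the block (0.0583), without the donor-library cells in endogenous clusters (0.0568), with the immune clusters kept (0.0717) and without either donor-derived library (0.349 and 0.272).

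The remaining 4 genes were not called below the gate. Trp63 read 14.8 and 9.74 CPM in endogenous, 8.17 and 25.3 in donor-derived and 8.65 CPM in control cells. Dlk2 read 8.56 and 3.21, 3.31 and 17.5, and 2.36 CPM in the same order. In both genes the donor-derived library of day 56 was the highest of the 5 and that of day 40 lay below its endogenous counterpart, so the groups overlapped. Clusters that scored highest for basal markers made up 23.5% of the other cells of that day 56 library, against 7.67% in the day 40 donor-derived, 6.78% and 2.94% in the endogenous and 0.626% in the control library; their part in these levels was not tested. Dapl1 read 57.7 and 31.0, 12.3 and 41.9, and 58.2 CPM, and Ngfr 4.28 and 2.59, 1.88 and 2.14, and 1.57 CPM. Without the day 40 donor-derived library Trp63 was called higher (1.04, edgeR adjusted p = 0.00442); without that of day 56 the value was -0.59 (0.0883).

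The difference between donor-derived and endogenous libraries was itself tested between the compartments, as an interaction in a model that keeps each library's own level. It was called for Pdpn and Icam1, 2 of the 7 genes, both more positive below the gate, where 2.93% of 13384 genes were called, 1.59% in that direction and 1.34% in the other. The group difference in Krt5-high cells was lower than in other cells by -1.23 ± 0.19 for Pdpn (edgeR adjusted p = 0.0251) and by -1.60 ± 0.19 for Icam1 (0.0123). Put as ratios within a library, Icam1 was 4.09 and 3.88 times higher in Krt5-high than in other cells of the endogenous libraries and 7.21 times in the control, but only 1.10 and 1.57 times in the donor-derived libraries. For Pdpn the ratios were 7.28 and 10.8, 7.39, and 3.86 and 3.62. For Aqp3 the interaction was -0.07 ± 0.35 (adjusted p = 0.954), with a sign that changed under other settings, and for Trp63 it was -1.01 ± 0.49 (0.378). With the day 40 or the day 56 endogenous library left out, 0 genes were called (edgeR; 1464 and 1244 genes, and 2 and 2 of the 7, at an unadjusted p under 0.05), with Icam1 at an adjusted p of 0.185 and 0.195 and Pdpn at 0.129 and 0.2502. Without a donor-derived library 865 (day 40 left out) and 2047 genes (day 56 left out) were called, and Trp63 joined the called genes without that of day 40 (-1.57, 0.00405). At a Krt5 threshold of 10 per 10000 the call for Pdpn was lost (-0.58 ± 0.19, 0.158).

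Since Pdpn and Icam1 were both higher in donor-derived cells outside the Krt5 gate, the stretches before their start sites are shown. They are the 250 bases upstream of the start in RefSeq (GRCm38.p6), read on the gene's strand, with capitals for an NF-kappaB motif (GGAAATTCC) or a gamma-activated site (GAS, TTCNNNGAA), the element bound by STAT factors. Both strands were searched, and the matches shown do not overlap.
Icam1, chr9:21015690-21015939, plus strand: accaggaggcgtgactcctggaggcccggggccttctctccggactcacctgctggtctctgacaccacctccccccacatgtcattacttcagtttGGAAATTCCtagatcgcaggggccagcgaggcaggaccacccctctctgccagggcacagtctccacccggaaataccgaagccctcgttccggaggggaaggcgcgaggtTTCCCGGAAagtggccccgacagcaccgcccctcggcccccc
Pdpn, chr4:143299565-143299814, minus strand: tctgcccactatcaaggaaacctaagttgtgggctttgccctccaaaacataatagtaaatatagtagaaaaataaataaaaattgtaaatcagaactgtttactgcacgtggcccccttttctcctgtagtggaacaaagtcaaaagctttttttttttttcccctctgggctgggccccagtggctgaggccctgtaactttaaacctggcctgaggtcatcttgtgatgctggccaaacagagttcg
The Icam1 stretch held 1 NF-kappaB motif that starts at position -153 and 1 GAS that starts at position -42 from the RefSeq start. Of 32851 mouse promoter stretches of this length, 0.286% held the NF-kappaB motif as spelled here and 7.02% the GAS. No match stood in the Pdpn stretch, nor in those of Dapl1, Dlk2, Aqp3 and Ngfr. The NF-kappaB motif was searched in this exact spelling alone, and other spellings were not searched. Its share over all stretches and the missing matches therefore hold for that spelling only. The spelling was set by hand, so the share does not measure how unlikely the match in Icam1 was. Binding and chromatin were not analysed here, so a match describes letters and no site. Trp63 was not matched.

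The other genes listed for their NF-kappaB or interferon response were followed in the same fits. In Krt5-high cells edgeR called 0 of 11 higher and 1 lower (2.73% and 5.3% of all genes). DESeq2 called 4 higher and 1 lower there, among 438 higher and 675 lower calls over all genes. The median log2 difference was 0.94 against 0.00 for all genes. In the other epithelial cells edgeR called 0 of 11 (8.23% of all genes). DESeq2 called 10 higher and 1 lower there, among 787 higher and 1421 lower calls over all genes. The median was 1.73 against 0.02. Values of the list there, none called by edgeR, included 3.21 ± 0.70 for Socs1, a brake on cytokine signalling. Relb, an NF-kappaB subunit, gave 2.24 ± 0.57 and Nfkbia, its inhibitor, 1.24 ± 0.46. The edgeR adjusted p of these genes was 0.0693, 0.0888 and 0.158. The 1 lower call was Cxcl1, a neutrophil chemokine named here because it was the list's single call: it had 12 and 32 UMIs in the endogenous Krt5-high sums and 0 in those of both donor-derived libraries and the control. In the interaction, Relb (-1.36 ± 0.20, adjusted p = 0.0220) and Socs1 (-1.75 ± 0.24, 0.0173) were called in the direction of Icam1, and so was Vcam1, another adhesion molecule of leukocyte integrins (-2.07 ± 0.37, 0.0440). Vcam1 was uneven between recipients: it read 108 CPM in the other cells of the day 40 donor-derived library, 15.7 on day 56, 8 and 2.59 in the endogenous and 0.590 in the control.

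Podoplanin's partners gave 2 higher and 0 lower calls of 7 below the gate: Msn (2.57 ± 0.27, edgeR adjusted p = 0.0234) and Cd44 (2.05 ± 0.23, 0.0238). Msn read 28.4 and 34.5 CPM in endogenous, 224 and 147 in donor-derived and 13.4 CPM in control other cells, so the donor-derived pair was again the highest. The interaction was called for Cd44 (-1.05 ± 0.18, 0.0295) and not for Msn (-1.05 ± 0.27, 0.125). Of 4 other aquaporins tested, Aqp5 was called higher below the gate (1.40 ± 0.21, 0.0339; 0.0648 with the block), in the direction opposite to Aqp3, and was called in the interaction (-1.51 ± 0.14, 0.00525).

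The smaller lists placed with each gene were followed in the same way. In the within-library comparison, counts are to be read against the 48.5% of all genes called there, 22% higher and 26.5% lower. Of 9 p53 family members and p63 partners, 6 were higher and 0 lower in Krt5-high cells, led by Snai2 (4.31 ± 0.42), a zinc finger factor, and Jag2 (3.23 ± 0.22), a Notch ligand. Of 6 Notch ligands and receptors, 3 were higher and 2 lower there, with the ligand Dll1 at 3.89 ± 0.44 and the receptor Notch2 at -1.11 ± 0.14. Of 7 neurotrophin genes 3 were higher and 2 lower, Ntf5 at 1.91 ± 0.13 and Sort1 at -2.11 ± 0.36. The other aquaporins gave 0 higher and 2 lower of 4, podoplanin partners 2 and 2 of 7 (Msn 1.35 ± 0.28, the tetraspanin Cd82 -1.61 ± 0.16), the Icam family and its ligands 0 and 1 of 3, and the NF-kappaB and interferon list 0 and 1 of 11. Between donor-derived and endogenous other cells, Sox2 was the 1 lower call among the p63 partners (-0.74 ± 0.13, edgeR adjusted p = 0.0443, and 0.0799 with the block) with 0 higher. The Notch list gave 1 higher and 0 lower of 6, the neurotrophins 0 and 1 of 7 and the Icam family 0 of 3 (edgeR; 2 at an unadjusted p under 0.05, 1 higher by DESeq2). In the interaction, Fgfr2, a receptor for fibroblast growth factors (-0.93 ± 0.13, 0.0178), was the 1 call of the p63 partners, and the Notch ligands Jag1 (1.52 ± 0.21, 0.0178) and Dll1 (-2.34 ± 0.35, 0.0214) went in opposite directions.

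Adhesion genes of the basal side gave a reference for the gate. Of 15 genes of hemidesmosomes, laminins and basal adhesion, 14 were higher and 0 lower in Krt5-high than in other cells (22% and 26.5% of all genes; median log2 difference 1.33 against -0.02 for all genes), among them Col17a1 (4.56 ± 0.30), the transmembrane collagen of hemidesmosomes, Bcam (3.13 ± 0.27), a laminin receptor, and Itgb4 (2.08 ± 0.13), the hemidesmosomal integrin. Between donor-derived and endogenous Krt5-high cells, 1 of these 15 was called higher (Lama3, 1.014 ± 0.20, edgeR adjusted p = 0.0389) and 0 lower (2.73% and 5.3% of all genes), and 2 higher and 1 lower with the recipient as a block. Krt14 was not called there (1.91 ± 0.41, 0.0726).

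Shares of cells with a UMI were compared after each cell was thinned to 5000 UMIs. Shallower cells were left out, which kept 434 of 452 and 326 of 328 endogenous, 697 of 704 and 902 of 935 donor-derived and 130 of 130 control Krt5-high cells. Of other cells it kept 606 of 634 and 470 of 477, 959 of 978 and 768 of 795, and 479 of 479. In Krt5-high cells Aqp3 was detected in 97.2% and 92.9% of endogenous, 66.4% and 51.7% of donor-derived and 98.5% of control cells (98.5% and 93.9%, 83.1% and 67.8%, and 100% before thinning). Pdpn was detected in 43.1% and 49.4%, 69.9% and 65.6%, and 41.5% of thinned Krt5-high cells. In the other cells it was found in 7.43% and 4.89% of endogenous, 25.7% and 24.6% of donor-derived and 6.26% of control cells. Icam1 was found in 9.41% and 12.8% of endogenous, 50.8% and 34.6% of donor-derived and 6.26% of control other cells (20.4% and 28.5%, 75.5% and 56.4%, and 11.48% before thinning). Ciliated-like cells, which should lack basal genes, served as a gauge of free RNA, at a median of 8760 to 17823 UMIs. Trp63 was found in at most 1.05% of the thinned ciliated-like cells of each library. Icam1 was found in 1.75% and 4.21% of endogenous, 19.5% and 17.1% of donor-derived (41 and 111 cells) and 1.30% of control ciliated-like cells, and Pdpn in 0.877% and 0.526%, 7.32% and 0.0%, and 1.30%.

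**Figure D3:**
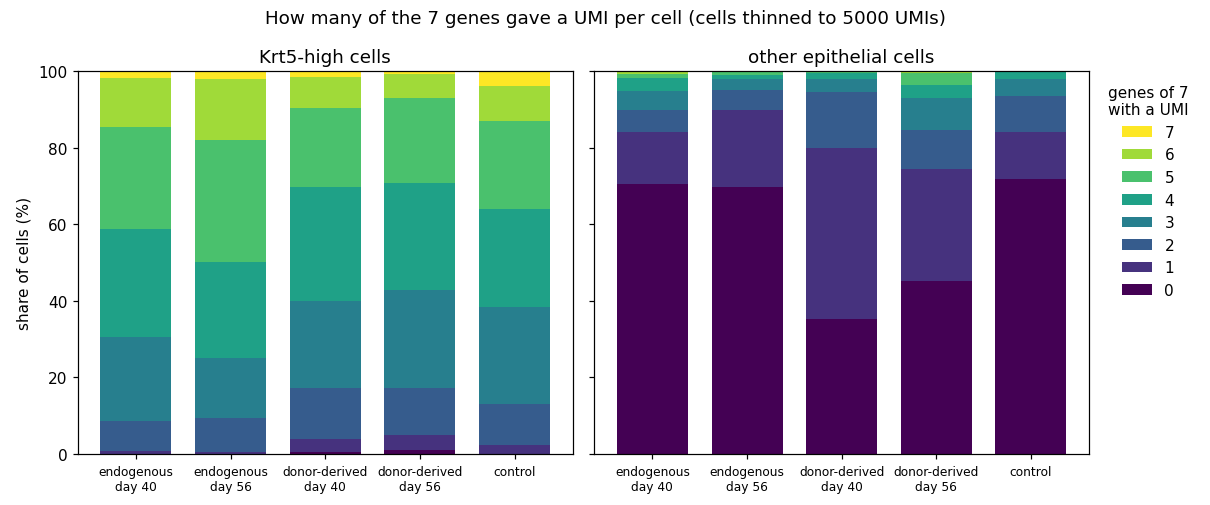
Share of cells by how many of the 7 genes gave a UMI, in Krt5-high and other epithelial cells of each library thinned to 5000 UMIs. Among other epithelial cells, those with at least 1 of the genes made up 64.8% and 55.0% in the donor-derived libraries and 28.2% to 30.2% in the endogenous and control libraries. Only Icam1 and Pdpn were found there more often in both donor-derived libraries than in the endogenous cells of the same day. Those with at least 4 made up 2.19% and 7.16% in the donor-derived and 2.09% to 5.28% in the endogenous and control libraries.

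Counted per cell, Krt5-high cells thinned to 5000 UMIs carried a mean of 4.18 and 4.35 of the 7 genes in the endogenous libraries, 3.80 and 3.71 in the donor-derived and 3.99 in the control. At least 4 of the genes were found in 69.4% and 74.9% of endogenous, 60.1% and 57.3% of donor-derived and 61.5% of control Krt5-high cells. In other cells the mean was 0.637 and 0.487, 0.933 and 1.08, and 0.532. The donor-derived libraries thus held the lowest means above the gate and the highest below it. Below the gate, only Icam1 and Pdpn were found more often in both donor-derived libraries than in the endogenous cells of the same day. Trp63, Dapl1, Dlk2, Aqp3 and Ngfr were each found less often in donor-derived than in endogenous other cells on day 40. On day 56 that held for Aqp3 alone (11.3% against 18.9%), and Trp63, Dapl1, Dlk2 and Ngfr were found more often. The share of other cells with at least 4 of the genes did not separate the groups. It was 5.28% and 2.13% in endogenous, 2.19% and 7.16% in donor-derived and 2.09% in control cells. Medians were 4 genes in Krt5-high cells of each library.

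**Figure D4:**
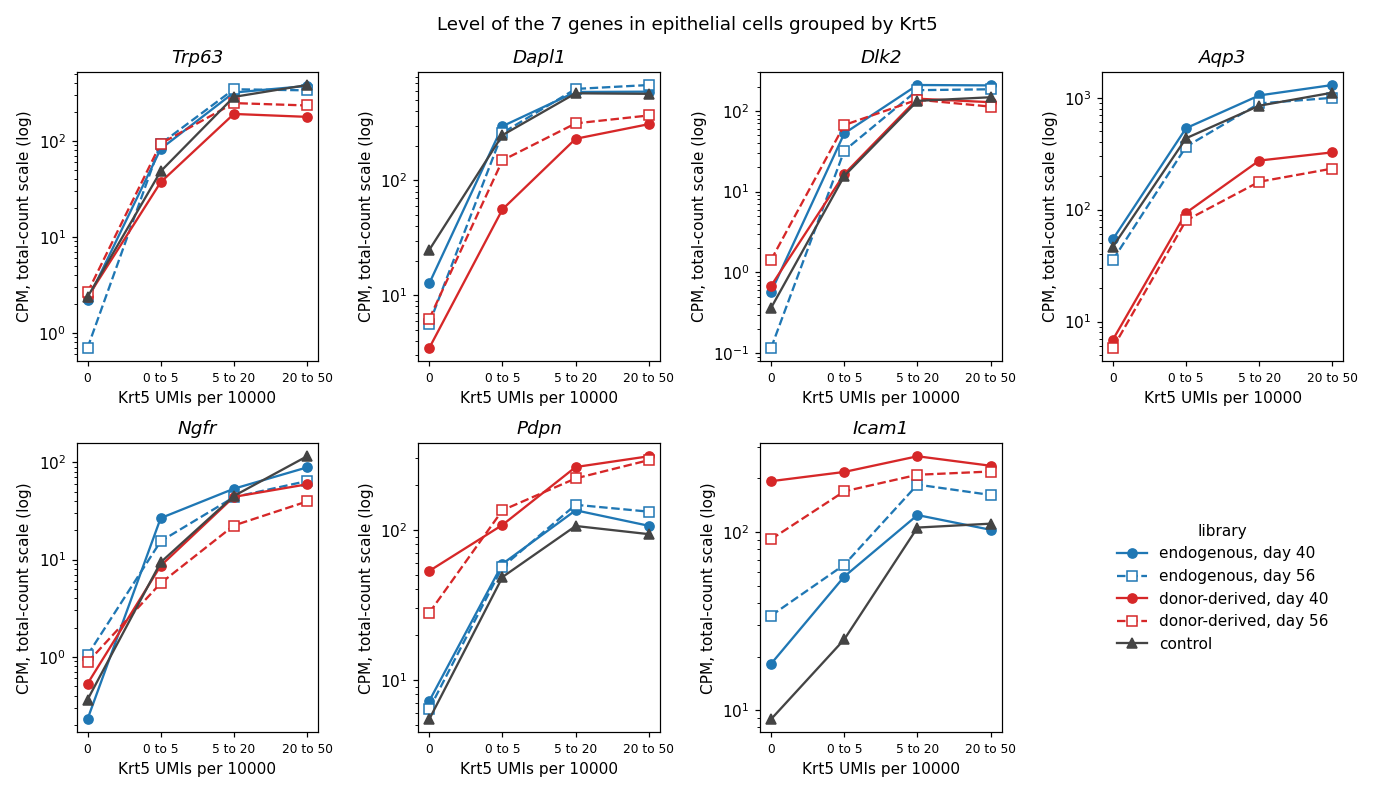
Level of each gene (CPM on the total-count scale, log axis) in epithelial cells with no Krt5 UMI, above 0 to under 5, 5 to under 20 and 20 to under 50 Krt5 UMIs per 10000, by library. Lines for Trp63 climb from 0.695 to 2.63 CPM without Krt5 to 192 to 348 CPM at 5 to under 20, while those for Icam1 in the donor-derived libraries start at 193 and 91.2 CPM.

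Along the Krt5 scale the 7 genes rose in each library from cells without a Krt5 UMI to cells at 5 to under 20 per 10000. Aqp3 went from 54.4 and 35.6 CPM to 1047 and 888 CPM in endogenous, from 6.89 and 5.82 to 274 and 177 CPM in donor-derived and from 46.7 to 847 CPM in control cells (total-count scale). The donor-derived libraries were the lowest at both of these Krt5 levels. Icam1 went from 18.2 and 34.0 to 125 and 185 CPM in endogenous, from 193 and 91.2 to 267 and 210 CPM in donor-derived and from 8.90 to 106 CPM in control cells, so the donor-derived libraries were the highest at both levels and rose by the smallest fold. Pdpn without Krt5 gave 7.22 and 6.37 CPM in endogenous, 53.2 and 28.0 in donor-derived and 5.45 CPM in control cells. Cells at 50 or more numbered only 1 to 11 per library and are not drawn. Summed over libraries, the 114 cells just below the threshold (4 to under 5) gave 177 CPM of Trp63, 474 of Aqp3 and 171 of Icam1, and the 115 cells just above it (5 to under 6) gave 196, 432 and 175 CPM. For Dapl1, Dlk2, Ngfr and Pdpn the values were 362, 124, 25.4 and 181 CPM below and 375, 118.5, 20.3 and 154 CPM above. Single libraries, with few cells each, differed more, as for Icam1 in the day 40 endogenous library (57.6 CPM in 25 cells below, 164.9 CPM in 22 cells above).

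**Figure D5:**
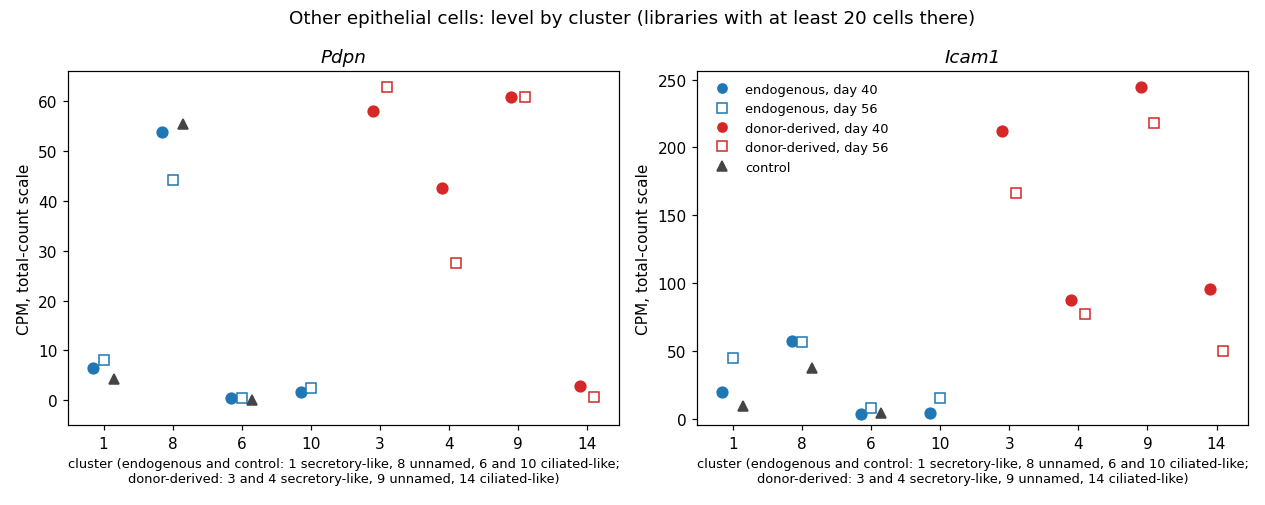
Pdpn and Icam1 (CPM on the total-count scale) in the secretory-like, ciliated-like and unnamed clusters of other epithelial cells, for each library with at least 20 cells in a cluster; basal-like and tuft-like clusters are not drawn. In the clusters drawn, Icam1 lies at 49.9 to 244 CPM in the donor-derived and at 3.63 to 57.3 CPM in the endogenous and control libraries, and Pdpn in ciliated-like clusters lies at 0.0 to 2.81 CPM in each library.

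The make-up of the other cells differed between groups. Secretory-like clusters held 39.8% and 42.8% of endogenous, 66.5% and 58.1% of donor-derived and 49.9% of control other cells, and ciliated-like clusters 36.3% and 40.7%, 4.09% and 14.7%, and 31.9%. Clusters were drawn from the same cells, so the values within them are a description. Among secretory-like cells Icam1 read 19.4 and 44.5 CPM in endogenous cluster 1 and 9.04 CPM in its control cells, against 212 and 166 CPM in donor-derived cluster 3 and 87.7 and 76.9 CPM in donor-derived cluster 4. Donor-derived cluster 9, unnamed and led by Ccl9 and Spib, gave 244 and 218 CPM. Among ciliated-like cells Icam1 read 3.63 and 7.93 CPM in endogenous cluster 6 and 95.5 and 49.9 CPM in donor-derived cluster 14 (34 and 70 UMIs in 22 and 112 cells). Endogenous ciliated-like cluster 10 gave 4.27 and 15.4 CPM. Since ciliated-like cells also gauge free RNA, these counts are given as levels and not read as expression there. Basal-like and tuft-like clusters were left out of that plot. Among basal-like clusters, Icam1 read 161 CPM in the 30 other cells of cluster 2 in the day 40 endogenous library. It read 170 and 307 CPM in day 56 donor-derived clusters 0 and 5, and 364 CPM in day 40 donor-derived cluster 7. As the endogenous value came from 30 cells of the day 40 library alone, the groups were not compared there. Tuft-like cluster 20 gave 0.0 and 12.7 CPM in the endogenous libraries.

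Pdpn differed in the same direction within secretory-like cells, with 6.60 and 8.14 CPM in endogenous cluster 1, 4.38 CPM in its control cells, 58.0 and 62.8 CPM in donor-derived cluster 3 and 42.6 and 27.5 CPM in cluster 4. In ciliated-like cells it gave 0.519 and 0.467 CPM in endogenous cluster 6 and 2.81 and 0.713 CPM, 1 UMI each, in donor-derived cluster 14. The unnamed cluster 8 of the endogenous and control libraries gave 53.6, 44.1 and 55.2 CPM of Pdpn, within the range of the donor-derived secretory-like cells. Aqp3 gave 669, 487 and 528 CPM in cluster 8, 61.7 and 48.7 CPM in endogenous cluster 1, 24.01 and 22.1 CPM in donor-derived cluster 3 and 6.26 and 4.40 CPM in cluster 4.

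The donor-derived Krt5-high cells were spread over clusters that differed in these genes. Cluster 7, led by Cxcl10, an interferon-induced chemokine, held 36.5% and 8.66% of them and gave 333 and 355 CPM of Icam1 and 337 and 316 CPM of Pdpn, with 148 and 129 CPM of Trp63. Cluster 0, led by Sftpc and Lmo1, held 10.5% and 61.3% and gave 144 and 189 CPM of Icam1, 178 and 218 CPM of Pdpn and 291 and 280 CPM of Trp63. Cluster 5, led by Clca3a2 and Krt14, held 39.9% and 17.1% with 231 and 230 CPM of Trp63. In clusters 7, 0 and 5 Aqp3 stayed at 156 to 322 CPM, below the 887 to 1065 CPM of the endogenous and control cluster 2. Cluster 13, led by Tnfrsf12a and Cpe, held 3.55% and 10.8% and gave 436 and 308 CPM of Aqp3. Its Pdpn read 154 and 159 CPM. Aqp3 is among the 10 leading genes of cluster 2 and in the basal marker list, so its level there is no independent evidence.

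Likeness between patterns was measured as Pearson's r of log2(CPM + 2) over the 10 sums (5 libraries by 2 compartments, which share libraries and depth), as a description. Trp63 and Dlk2 were the closest pair of the 7 (r = 0.993), and Icam1 lay nearest to Pdpn (0.890) and farthest from Aqp3 (0.115). Among genes of at least 20 CPM the 3 nearest to Trp63 were Rpl36a, Amotl1 and Rpl23 (0.994, 0.994 and 0.993), those nearest to Aqp3 were Mical3, Ptma and Apoe (0.992, 0.983 and 0.982), and those nearest to Dlk2 were Trp63, Rps24 and Pdzd2 (0.993, 0.991 and 0.991). For Dapl1 they were Hlf, Sema3d and Camta1 (0.990 to 0.985), for Ngfr Mtch1, Plch2 and Defb1 (0.989 to 0.984), for Pdpn Aprt, Limk2 and Tmem64 (0.996 to 0.990) and for Icam1 Dram1, Apobec1 and Bcl10 (0.973 to 0.967).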

How the data were processed

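The authors deposited raw counts: a whole number of UMIs for every gene in every cell barcode (10x Chromium libraries, per the labels), with human and mouse genes in 1 matrix. The submitters' processing notes list GRCm38 and GRCh38 as builds, and as tools STARsolo, Cell Ranger and Seurat; the tool behind the matrices and its strand setting were not stated there.

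Barcodes with more than 10% human-mapped UMIs (192, all in the control), then under 500 genes or over 20% mitochondrial UMIs (38), and Scrublet doublets (48) were left out of 6832, which left 6554. For clustering, each cell was scaled to 10000; 2000 variable genes, 30 components, 15 neighbours and Leiden resolution 1.0 (seed 1) gave 24 clusters, named "-like" by the best score over fixed marker lists where at least 3 of its markers were detected and no other list had more markers among the 10 leading genes (cluster 8, which scored highest as secretory-like, stays unnamed for that reason). The 18 clusters with Epcam in at least 50% and Ptprc in under 50% of cells are epithelial. The Ptprc condition was added after seeing that 2 immune clusters passed on Epcam, and the rule without it is an alternative, as is leaving out other cells that have any Krt5 UMI. Of 642 non-epithelial cells, 5 passed the Krt5 gate and were not used. Clusters 0 and 18 (basal-like), 3 (secretory-like, with a low score) and 10 (ciliated-like) were named although none of their own markers is among their 10 leading genes.

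Counts were summed per library and compartment and tested with edgeR 4.0.16 (R 4.3.3; TMM factors, the filterByExpr filter, a robust fit, the quasi-likelihood F-test and Benjamini-Hochberg adjustment at 0.05). SE is the absolute log2 fold change divided by the square root of F, an approximation. Scripts were tested on simulated counts. DESeq2 1.42.0 was an alternative. Python 3.11.15, scanpy 1.11.5, leidenalg 0.10.2, scipy 1.17.1, pandas 2.3.3 and matplotlib 3.10.9 were used. The control, 1 library, was not tested; its 95% intervals are exact Poisson ones for counting error only. Values by cluster and Krt5 level are on the total-count scale and exclude groups under 20 cells in clusters.

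The design text gives 1 recipient per day, so same-day libraries share an animal. Deviations from the group mean correlated at 0.32 (Krt5-high) and 0.09 (other) between libraries of a recipient, over 5768 and 5354 genes of at least 20 CPM. Members and lists were chosen with earlier results of these data known. Named genes are the 7 members, Krt5, Krt14, Krt15, up to 4 called genes per list and comparison with the largest change at 20 CPM or more, and the 3 genes nearest each member. Coordinates are from GENCODE (GRCm38), and upstream stretches from RefSeq, matched for 6 of 7 members. Some genes of the lists are counted but not reported here by name.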

Additional observations from a re-analysis of the deposited data

Results flagged for a closer look

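The difference between donor-derived and endogenous libraries was not the same in the 2 compartments for Pdpn and Icam1. On the log2 scale it was smaller in Krt5-high than in other epithelial cells by -1.23 ± 0.19 for Pdpn (edgeR adjusted p = 0.0251) and by -1.60 ± 0.19 for Icam1 (0.0123), tested as an interaction over 4 libraries with 2 sums each. In both genes each donor-derived library had a lower ratio of Krt5-high to other cells than each endogenous one.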

How the results depend on the processing

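No call among the 7 genes changed direction; the values that changed sign were not called. In other epithelial cells Trp63 went to -0.008 at a Krt5 threshold of 10 and ranged from -0.59 to 1.04 over libraries left out, and Dlk2 from -0.84 to 1.69. In the interaction, Aqp3 (-0.07) turned to 0.22 and 0.0758 at thresholds of 2 and 10, 0.0296 with epithelial cells chosen singly, 0.0104 without cell filters, 0.0348 without Krt13 cells and 0.74 against cells without Krt5 UMIs. Ngfr (0.12) turned to -0.57 and -0.31 at those thresholds, -0.62 after thinning and -0.59 against cells without Krt5 UMIs. Over libraries left out, Aqp3 ranged from -0.48 to 0.33, Ngfr from -0.52 to 0.61, Dapl1 from -0.94 to 0.49 and Dlk2 from -2.18 to 0.23. Causes were not tested.

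Counts of genes called moved from 950 to 1464 in Krt5-high cells with the recipient as replicate block (943 shared), and to 130 to 1951 over libraries left out, with 0 to 6 of the 7 genes. In other cells 1058 became 2208 by DESeq2, 673 (1 of the 7 genes) without donor-library cells in endogenous clusters and 0 to 5887 over libraries left out (0 to 2 of the 7); the immune clusters kept, and the block, each left 1 of the 7. The block gave 799 calls there, 659 of them shared. In the interaction 392 became 671 without a filter and 0 to 2047 over libraries left out (0 to 3 of the 7), and 1 of the 7 remained at a threshold of 10. Within libraries, 4883 to 6234 genes and 6 or 7 of the 7 were called over libraries left out.

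Depth limits Ngfr below the gate, which rests on 8 to 38 UMIs per library. With 2 libraries per group, each call between donor-derived and endogenous cells depended on both endogenous libraries.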

Other observations

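Outside the epithelium, the 214 and 414 non-epithelial cells of the endogenous libraries, mostly immune clusters, gave 62.0 and 74.2 CPM of Icam1 on the total-count scale, 1.009 and 2.45 CPM of Trp63 and 20.2 and 9.79 CPM of Aqp3. The other libraries held 1 to 11 such cells.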
